A study of Mus musculus with 77 samples.

Results

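The blood transcriptome of stress-susceptible mice was compared with that of control mice of the same inbred strain, C57BL/6Crl (B6). Chronic social defeat stress exposes a male mouse to repeated defeat by an aggressor. Susceptible mice are the defeated animals that afterwards avoid a social target, while resilient mice do not. The comparison holds 10 of the 25 blood mRNA samples and of the 77 samples of the series, chosen by strain and group: 5 susceptible and 5 control B6 males, 1 mouse per sample and 8 weeks old. The mice were killed by cervical dislocation 6 to 8 days after the last defeat, and trunk blood was taken at decapitation into EDTA. Control mice were not defeated, and the susceptible mice were those with the lowest social interaction ratios. The other 15 blood samples came from 5 resilient B6 mice and from 5 control and 5 susceptible DBA/2Crl (D2) mice.

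Whole blood RNA is a mixture. Red cell precursors contribute globin and heme synthesis transcripts, white cells contribute immune transcripts, and platelets, which have no nucleus, carry RNA inherited from the megakaryocytes of the marrow. Platelets are known for stopping bleeding, through receptors for von Willebrand factor, fibrinogen and collagen, and for storing chemokines and adhesive proteins in granules that they release when activated. In bulk blood, fewer cells of a type and less RNA per cell cannot be told apart.

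The libraries were depleted of ribosomal and globin RNA. Between 9751603 and 14969801 reads per mouse were counted on the 13084 genes of the table, and 3.08% to 4.65% of them came from haemoglobin genes in the 10 mice. All 22 measured defining markers of neutrophils, monocytes, B, T and NK cells, platelets and erythroid cells were present, with median levels from 1.06 log2 CPM (depth-scaled read counts on the log2 scale) for Cd3e to 16.50 log2 CPM for Alas2. Markers of brain, liver and muscle were chosen as ones that whole blood should lack. Of these, Gfap (2.40 to 3.78 log2 CPM), Mbp (5.76 to 6.75), Acta1 (2.48 to 5.55) and Ckm (0.65 to 3.87) were detected in all 10 mice. Snap25, Alb and Apoa1 were not among the genes of the table. Whether the detected transcripts came from those tissues or from blood cells was not tested. Genes of the salivary glands and of the airway were abundant in some mice and are described after the platelet genes.

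A gene was called differentially expressed (DE) when the unadjusted p of limma's moderated test was under 0.05 and the fold change at least 1.2. By this rule 589 genes (4.50%) were DE, 390 higher (2.98%) and 199 lower (1.52%) in susceptible mice. Without susceptible mouse 1 the excess of higher calls turned, to 194 higher and 270 lower. The median log2 fold change was 0.02 over all genes, 0.67 over those called higher and -0.51 over those called lower. No gene passed an adjusted p of 0.05 (Benjamini-Hochberg over all genes tested, lowest adjusted p = 0.968 in limma), and 610 genes (4.66%) had an unadjusted p under 0.05, where 5% would if no gene differed. The calls below are therefore nominal. Genes with a mean level under 2 log2 CPM made up 46.2% of the genes called lower, 28.7% of those called higher and 31.5% of all genes.

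**Figure D1:**
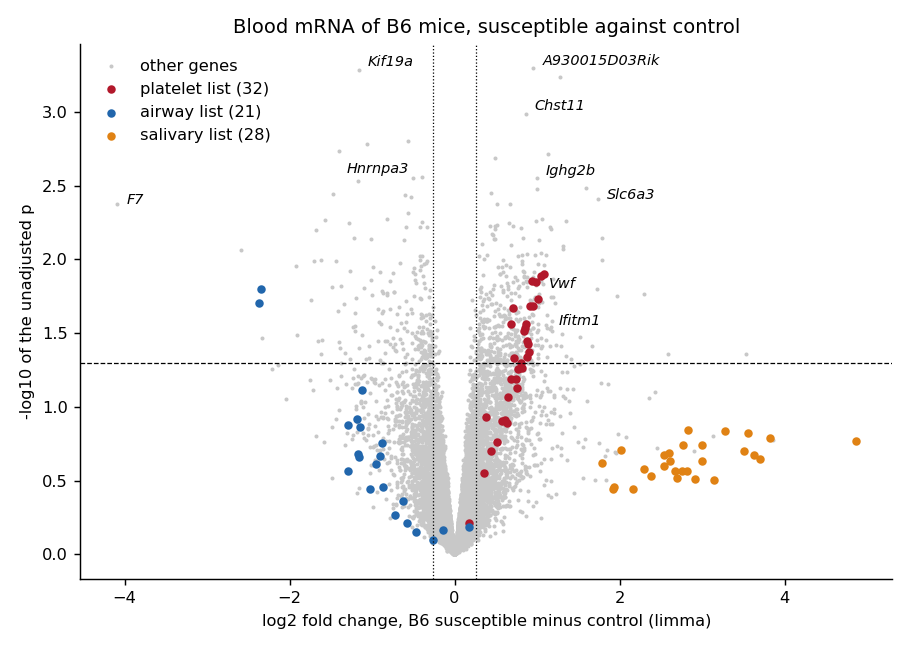
Log2 fold change (x axis, B6 susceptible minus control) against -log10 of the unadjusted limma p (y axis), 1 point per gene, with the 32 platelet, 21 airway and 28 salivary genes in colour and dotted and dashed lines at a fold of 1.2 and a p of 0.05. All 32 platelet genes lie above 0, and the 28 salivary genes lie at log2 fold changes of 1.78 to 4.86 without passing the p threshold.

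Platelet genes were the group with the most calls. Of the 33 genes of the platelet list 32 were measured, all 32 were higher on average in susceptible mice, and 17 were DE, all of them higher, where 2.98% of all genes were called higher. The list's median log2 fold change was 0.79, against 0.02 over all genes. Among the 17 were the receptor for von Willebrand factor (Gp1ba, Gp1bb, Gp5, Gp9), the fibrinogen receptor and its activator (Itga2b, Itgb3, Fermt3), the granule and plasma proteins Ppbp, Vwf, Thbs1 and F5, the surface receptors Treml1 and P2rx1, and Alox12, Myl9 and Nrgn. The other 15 did not pass the test, with log2 fold changes from 0.18 for Trim58 to 0.81 for Gp6, and these included Pf4 (0.65 ± 0.36 SE, limma p = 0.0859, exact permutation p = 0.159).

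Vwf, on chr6:125546774-125686679 (GRCm38), encodes the adhesive protein that bridges platelets to collagen, and endothelium makes it too. Control mice had 5.62, 5.12, 6.17, 6.00 and 5.27 log2 CPM and susceptible mice 8.61, 6.09, 7.02, 5.45 and 6.28. Susceptible mouse 1 was the highest of the 10, and susceptible mice 2 and 4 lay within the range of the controls. The log2 fold change was 1.05 ± 0.39 (SE, limma p = 0.0129, exact permutation p = 0.0794).

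Gp1bb, on chr16:18620317-18622403, encodes a subunit of the receptor that binds von Willebrand factor. Control mice had 3.98, 2.45, 3.80, 4.15 and 3.37 log2 CPM and susceptible mice 5.31, 4.03, 5.07, 3.73 and 4.33. Susceptible mice 1, 3 and 5 were above every control, and mice 2 and 4 were not. The log2 fold change was 0.94 ± 0.36 (SE, limma p = 0.0141, exact permutation p = 0.0714).

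Ppbp, a granule chemokine, and Itga2b, the integrin subunit that defines the megakaryocyte lineage, were among the most abundant of the list. Ppbp stood at 10.79, 9.39, 10.96, 11.51 and 10.44 log2 CPM in the controls and 11.81, 11.02, 12.32, 10.89 and 11.48 in the susceptible mice (log2 fold change 0.89 ± 0.40 SE, limma p = 0.0373, exact permutation p = 0.0714). Itga2b stood at 9.37, 8.05, 9.63, 9.53 and 8.85 in the controls and 10.44, 9.54, 10.76, 8.99 and 10.18 in the susceptible mice (0.90 ± 0.42 SE, limma p = 0.0426, exact permutation p = 0.0635). In both genes, as in the list as a whole, control mouse 2 was the lowest of the 10 and susceptible mouse 3 the highest, and the groups overlapped.

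**Figure D2:**
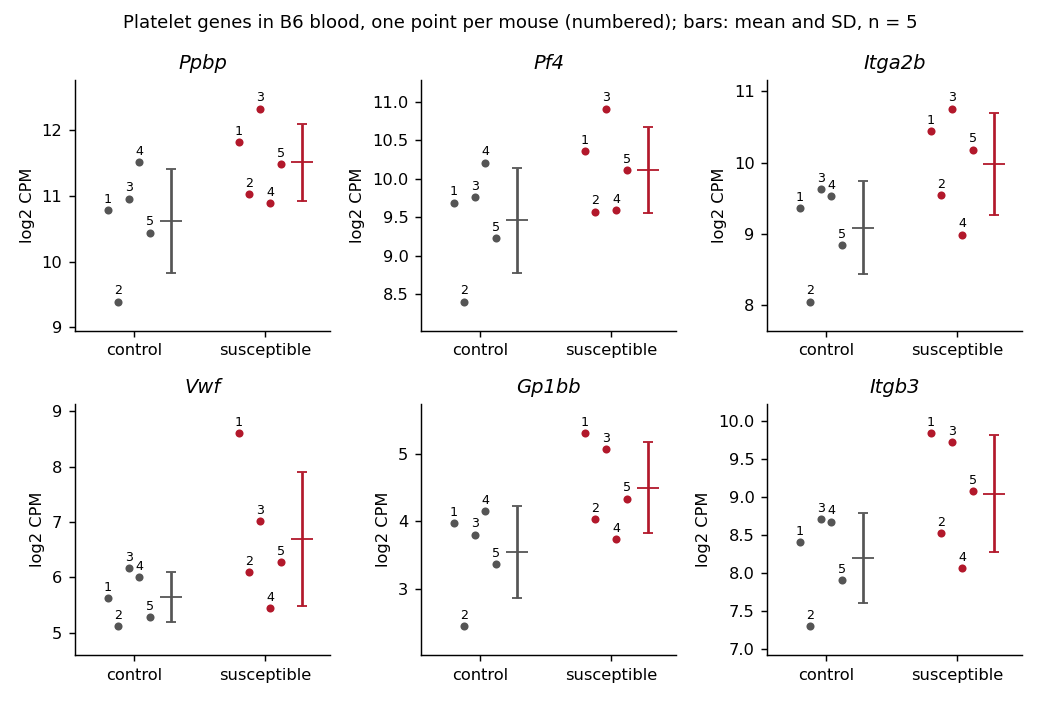
Levels of 6 platelet genes in log2 CPM (y axis) in each control (grey) and susceptible (red) B6 mouse, numbered by replicate, with the mean and SD of 5 mice beside the points. Control mouse 2 is the lowest in every panel and the groups overlap in each.

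The upstream sequences of 4 of these genes are shown because the members moved together and megakaryocyte genes are known for GATA and ETS sites close to their starts. Ppbp and Pf4 are neighbours on chromosome 5, and Gp1ba and Gp5 encode subunits of the same receptor. Each line gives the 250 bases before the annotated start, 5′ to 3′ on the strand of the gene (RefSeq, GRCm38.p6), with capitals marking matches on either strand. The letters searched for GATA were AGATAA and, as a second form, TGATAA. Those searched for ETS were AGGAAG and, as a second form, CGGAAG. The windows are chr5:90768268-90768517 on the + strand for Ppbp, chr5:90772185-90772434 on the + strand for Pf4, chr11:70638872-70639121 on the + strand for Gp1ba and chr16:30310782-30311031 on the - strand for Gp5.
Ppbp: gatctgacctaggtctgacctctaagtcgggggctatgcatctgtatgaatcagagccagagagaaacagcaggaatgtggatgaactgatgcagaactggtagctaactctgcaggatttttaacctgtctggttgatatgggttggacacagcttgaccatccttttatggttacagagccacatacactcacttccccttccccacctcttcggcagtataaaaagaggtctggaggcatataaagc
Pf4: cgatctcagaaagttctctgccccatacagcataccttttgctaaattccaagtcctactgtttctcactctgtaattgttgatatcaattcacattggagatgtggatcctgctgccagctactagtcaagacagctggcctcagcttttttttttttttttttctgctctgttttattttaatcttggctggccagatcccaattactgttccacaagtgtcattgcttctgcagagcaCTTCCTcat
Gp1ba: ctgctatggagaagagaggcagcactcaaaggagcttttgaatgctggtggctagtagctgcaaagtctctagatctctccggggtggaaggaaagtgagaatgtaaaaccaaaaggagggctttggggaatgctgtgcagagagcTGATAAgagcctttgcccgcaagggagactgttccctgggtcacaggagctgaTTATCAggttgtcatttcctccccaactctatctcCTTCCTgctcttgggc
Gp5: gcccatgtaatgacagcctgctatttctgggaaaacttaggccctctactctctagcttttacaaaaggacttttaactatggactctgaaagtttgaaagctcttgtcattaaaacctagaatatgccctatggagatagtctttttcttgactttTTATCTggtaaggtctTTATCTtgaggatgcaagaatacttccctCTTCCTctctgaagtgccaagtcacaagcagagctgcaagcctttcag

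Of the 32 measured platelet genes 26 had an upstream window in the RefSeq table. GATA letters were found in 7 of the 26 (26.9%), against 928 of 9679 windows of genes in the blood table (9.59%) and 4591 of 27025 windows in all. ETS letters were found in 12 of the 26 (46.2%), against 4598 of 9679 (47.5%) and 10527 of 27025. Gp1ba and Gp5 held 2 GATA matches and 1 ETS match each, the only windows of the 26 with both kinds, whereas Pf4 held 1 ETS match and Ppbp none of either. These are matches of letters, and no binding was measured.

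The platelet level rested on a few mice. The mean over the 32 genes was 7.35, 6.23, 7.59, 7.83 and 6.98 log2 CPM in control mice 1 to 5 and 8.50, 7.45, 8.64, 7.20 and 7.96 in susceptible mice 1 to 5, so that the group means of 7.20 ± 0.62 and 7.95 ± 0.63 (SD, n = 5 each) overlapped in their ranges. The number of platelet genes called higher fell from 17 to 0 without susceptible mouse 1, to 2 without control mouse 2, to 5 without susceptible mouse 3 and to 7 without control mouse 5, and rose to 27 without control mouse 4. The direction of the median held when any 1 of the 10 mice was left out, with medians from 0.54 to 0.98. The names of the mice begin with EC3 (control and susceptible mice 1 and 2) or EC4 (mice 3 to 5), a prefix whose meaning is not given. Within EC3 the median was 1.22 and 24 of the 32 genes were called higher, and within EC4 it was 0.48 and none was.

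The resilient B6 mice, compared with the same 5 controls, had intermediate platelet levels. Their list mean was 7.59 ± 0.40 log2 CPM (SD, n = 5, range 7.09 to 8.10). The median log2 fold change of the 32 genes was 0.44 in resilient mice against 0.79 in susceptible mice, and 0 of the 32 were DE in resilient mice, where 0.848% of all genes were called higher. Since both contrasts use the same control mice, they are given side by side only.

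In the D2 strain the platelet genes lay on the other side of 0. With the D2 groups of the labels, their median log2 fold change between susceptible and control mice was -0.41. By these labels 0 of the 32 were DE (limma, 0.680% of all genes called higher and 0.894% lower). With the groups of the column names, described below, 20 of the 32 were called lower. The difference between the B6 and D2 responses was tested directly as an interaction. With the labels it was called for 22 of the 32 platelet genes, all with the higher response in B6. Of all genes 4.57% were called in that direction and 0.803% in the other. This count fell to 11 without control mouse 2 and to 12 without susceptible mouse 1 or 3, and rose to 29 without control mouse 4. For Vwf the interaction was 1.54 ± 0.55 (SE), which was called. No gene had an interaction with an adjusted p under 0.05 (limma, lowest adjusted p = 0.918, 704 genes at an unadjusted p under 0.05). In 2 D2 mice the label and the ending of the data column name different groups, and the labels were used here. With the groups of the column names the platelet median in D2 was -0.76, 20 of the 32 genes were called lower in D2 and 30 were called in the interaction. All D2 calls then numbered 890, against 206 by the labels. Of the genes called in both strains, 154 of 162 then went in opposite directions, against 12 of 17 by the labels. The paper reports more nominal calls in D2 than in B6 blood, with most shared genes opposite between the strains. D2 calls outnumbered B6 calls with the column names (890 against 667) but not with the labels (206 against 589). The counts by column name are thus nearer to the paper's pattern. The sources do not say which grouping is right, so the D2 values are uncertain.

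**Figure D3:**
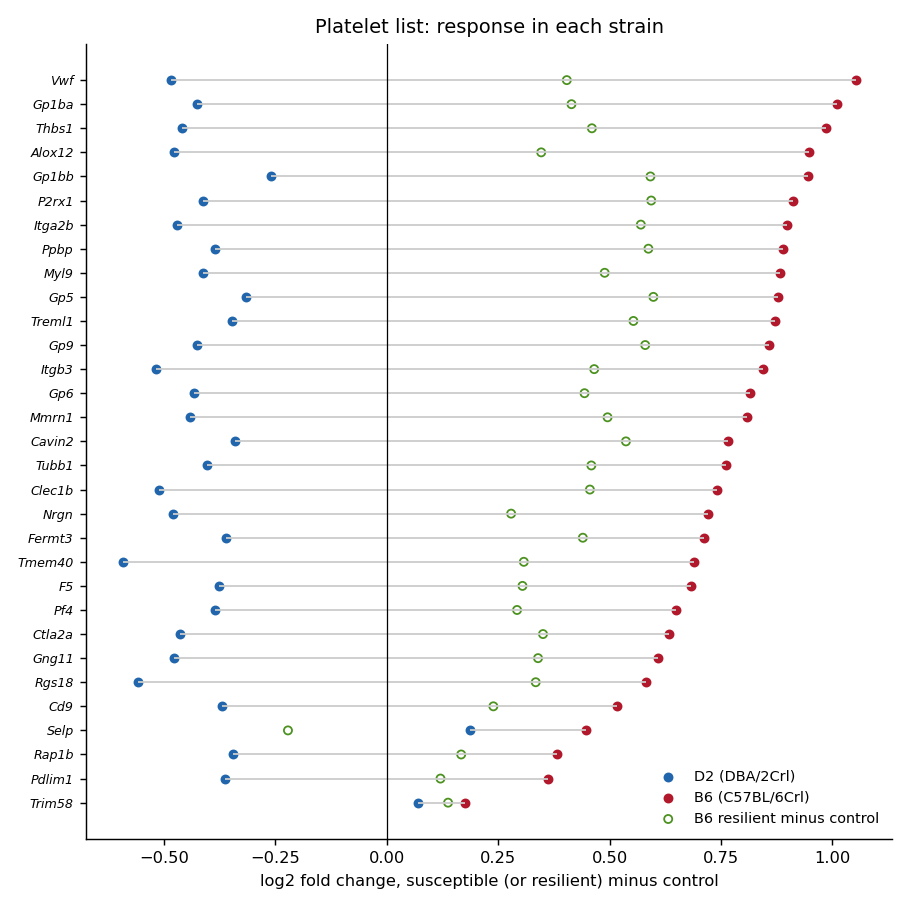
Log2 fold change (x axis) of 31 of the 32 platelet genes (rows, ordered by the B6 susceptible value) in B6 susceptible (red), B6 resilient (open green) and D2 susceptible (blue) mice, each against controls of its strain. All 31 red points lie above 0 and 29 of the 31 blue points below it, the exceptions being Selp and Trim58. The D2 groups are those of the labels.

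The highest fold changes in the table belonged to genes of the salivary glands. Among the 36 genes with a log2 fold change of at least 2, 25 were on a list of 34 salivary genes that was compiled after these values were seen. All 28 measured members were higher on average in susceptible mice, with log2 fold changes from 1.78 to 4.86 (median 2.76), and 0 of the 28 were DE in limma. The total of reads on the 28 genes was 67, 78, 7039, 74 and 34442 in control mice 1 to 5 and 7331, 69, 17310, 68743 and 11049 in susceptible mice 1 to 5. Salivary transcripts were thus plentiful in 4 of 5 susceptible and 2 of 5 control mice and nearly absent from the other 4. Of the 5 resilient mice, 1 had 59130 such reads and the others 41 to 105.

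The salivary genes did not follow a single pattern among these 6 mice. Bpifa2, a secretory protein of the parotid gland, was at 7.50 and 5.97 log2 CPM in control mice 3 and 5 and at 8.51, 6.94, 6.72 and 6.42 in susceptible mice 1, 3, 4 and 5, and it had 0 reads in the other 4 mice. Amy1, the salivary amylase, followed the same order at the top, with 7.93 in susceptible mouse 1 and 6.93 in control mouse 3. Egf, which the granular ducts of the submandibular gland make, was instead at 0.14 in susceptible mouse 1 and 4.10 in control mouse 3, against 9.01 in control mouse 5 and 7.20 to 8.76 in susceptible mice 3 to 5. The kallikrein genes of the Klk1b cluster behaved like Egf, for example Klk1b22 at 6.90 in control mouse 5 and 8.55 in susceptible mouse 4 but at 0 reads in susceptible mouse 1. These kallikreins are near-identical copies, so that reads could be split between them and single members are uncertain.

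Airway genes differed in the opposite direction. Of 26 genes of airway epithelium, also compiled after values were seen, 21 were measured, 20 of the 21 were lower on average in susceptible mice (median log2 fold change -0.95), and 2 were DE, both lower, where 1.52% of all genes were. These were Sftpa1, a surfactant protein (-2.37 ± 0.95 SE, limma p = 0.0196, exact permutation p = 0.0714), and Dnah5, a motor of cilia (-2.35 ± 0.91 SE, limma p = 0.0159, exact permutation p = 0.0714). Bpifa1, the most abundant secretory protein of the upper airway on the list, was at 6.52, 6.23, 10.25, 9.22 and 7.57 log2 CPM in the controls and 7.08, 7.14, 7.07, 7.59 and 6.41 in the susceptible mice. Control mice 3 and 4 were above every other mouse, and the remaining 8 lay close together. In resilient mice 14 of the 21 were DE against the same controls, all lower, where 1.26% of all genes were called lower. The gene with the steepest fall of the whole table, F7 (coagulation factor VII, known from liver), had levels of -0.94, 1.55, 1.92, 3.05 and -3.25 in the controls and -2.67, -5.12, -2.67, -3.41 and -4.25 in the susceptible mice (log2 fold change -4.09 ± 1.29 SE, limma p = 0.00418, exact permutation p = 0.0238). It was named for its size after its values were seen and was also highest in control mice 3 and 4. Its mean level was at percentile 0.703 of all genes, so its fold change rests on few reads and is uncertain.

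Skeletal muscle genes, the third such list, were higher in 19 of 20 members on average (median 0.65), and 1 was called higher, where 2.98% of all genes were. It was Tpm2, a tropomyosin (0.76 ± 0.33 SE, limma p = 0.0302, exact permutation p = 0.111). Acta1, skeletal actin, stood at 2.48, 4.39, 4.34, 3.88 and 2.49 log2 CPM in the controls and 5.06, 3.52, 5.55, 4.39 and 3.53 in the susceptible mice. Susceptible mice 1 and 3, which had the highest platelet means, also had the highest muscle means of the 10 (3.53 and 3.51). Other mice did not follow this order. Control mouse 2, with the lowest platelet mean (6.23), had the highest muscle mean of the controls (2.78). Susceptible mouse 5 had a platelet mean of 7.96 and a muscle mean of 1.46. The part of muscle RNA in the platelet result was not tested. Airway and salivary levels were entered in refits, chosen after seeing the data. With their means as covariates, 31 of the 32 platelet genes were called higher (median 1.13), and without control mice 3 and 4, 29 of the 32 were (median 1.18). Control mice 3 and 4 also had the highest platelet means of the controls (7.59 and 7.83 log2 CPM). Leaving them out therefore widens the platelet difference whatever their airway level, so that refit cannot separate the airway and platelet levels. The same mice had the highest airway means of the 10 (4.50 and 3.63 log2 CPM). The covariate refit therefore cannot separate these levels either.

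**Figure D4:**
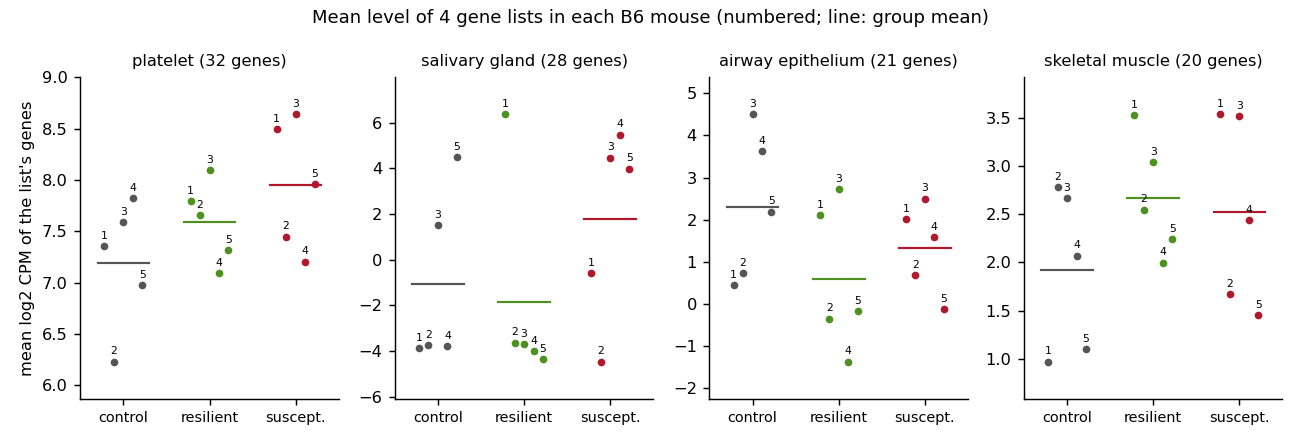
Mean level in log2 CPM (y axis) of the genes of 4 lists in each B6 mouse, numbered by replicate, with a line at the group mean. Salivary genes are highest in resilient mouse 1, control mouse 5 and susceptible mice 3 to 5, with control mouse 3 and susceptible mouse 1 between these and the rest, airway genes are highest in control mice 3 and 4, and platelet levels overlap between the groups.

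Among single genes, 5 of the 39 named DE genes were called in every alternative in which they could be tested: Chst11, Gm10509, Zfp109 and Slc6a3, which were higher, and Kif19a, which was lower. Slc6a3 (log2 fold change 1.45), Gm10509 (0.92) and Kif19a (-0.68) were also DE in resilient mice against the same controls. So were Nup62 (-0.35), Gm21092 (1.41) and Mrpl37 (0.33) among the other named genes. The sign in resilient mice was the same for 383 of the 390 higher and 176 of the 199 lower calls. It was also the same for 9684 of all 13084 genes. Chst11, on chr10:82985498-83195900, encodes a sulfotransferase of chondroitin synthesis. It was at 3.48, 2.49, 3.34, 3.32 and 2.91 log2 CPM in the controls and 4.79, 3.36, 4.14, 3.50 and 4.05 in the susceptible mice, and every susceptible mouse but mouse 2 was above all controls. Its log2 fold change was 0.86 ± 0.23 (SE, limma p = 0.00103, exact permutation p = 0.0159), and it was 0.44 with the mean platelet level as a covariate.

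Slc6a3, on chr13:73536747-73578672, encodes the dopamine transporter and is best known from midbrain neurons. Its read counts were low, 18, 3, 26, 33 and 19 in the controls and 69, 28, 53, 45 and 44 in the susceptible mice. On the log2 CPM scale susceptible mouse 2, at 0.72, was inside the range of the controls and the other 4 were above it, while control mouse 2, at -1.98, was far below the rest. The log2 fold change was 1.74 ± 0.55 (SE, limma p = 0.00390, exact permutation p = 0.0238), and it was 0.68 with the mean platelet level as a covariate.

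Kif19a, on chr11:114765388-114790739, encodes a kinesin that shortens cilia. It had 18, 24, 28, 19 and 26 reads in the controls and 5, 18, 9, 12 and 4 in the susceptible mice, and on the log2 CPM scale all 5 susceptible mice were below all 5 controls. The log2 fold change was -1.16 ± 0.29 (SE, limma p = 5.17e-04, exact permutation p = 0.00794, the smallest that 5 against 5 mice allow). Zfp109, a zinc finger gene on chr7:24227572-24237560, had 11, 10, 7, 21 and 17 reads in the controls and 24, 29, 19, 25 and 21 in the susceptible mice, again with no overlap in log2 CPM (1.13 ± 0.32 SE, limma p = 0.00194, exact permutation p = 0.00794). Gm10509, on chr17:21690180-21691022, is annotated as a processed pseudogene, had 4 to 9 reads in the controls and 10 to 21 in the susceptible mice, and is uncertain because its parent gene can share reads (1.28 ± 0.32 SE, limma p = 5.82e-04, exact permutation p = 0.00794).

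The groups did not overlap for 42 genes, 26 higher (0.199%) and 16 lower (0.122%) in susceptible mice. With 5 against 5 mice, chance alone gives no overlap for a share of 0.00794 of genes, more than was seen. The exact permutation p of 0.00794 of each such gene follows from the lack of overlap itself and adds no support. Hnrnpa3, an RNA-binding protein, was the best measured of those named, at 4.56, 4.55, 4.63, 4.44 and 4.74 log2 CPM in the controls and 4.30, 4.21, 4.18, 4.17 and 4.11 in the susceptible mice (-0.39 ± 0.12 SE, limma p = 0.00275, exact permutation p = 0.00794). Nup62, a protein of the nuclear pore, was at 2.66 to 2.85 against 2.08 to 2.52 (-0.51 ± 0.15 SE, limma p = 0.00279, exact permutation p = 0.00794), and Ssr2, a subunit of the translocon-associated complex of the endoplasmic reticulum, at 2.95 to 3.18 against 2.08 to 2.77 (-0.57 ± 0.16 SE, limma p = 0.00159, exact permutation p = 0.00794). Both had control levels within a narrow band and every susceptible mouse below it. Sik3, a kinase of the salt-inducible family, was at 2.56 to 3.14 in the controls and 3.29 to 3.58 in the susceptible mice (0.44 ± 0.14 SE, limma p = 0.00357, exact permutation p = 0.00794).

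Other non-overlapping genes were low. Bmyc, a relative of the Myc oncogene, had 24 to 30 reads in the controls and 8 to 24 in the susceptible mice (-0.82 ± 0.27 SE, limma p = 0.00533, exact permutation p = 0.00794), and Tmem97, the sigma-2 receptor, 15 to 27 and 7 to 15 (-0.74 ± 0.28 SE, limma p = 0.0124, exact permutation p = 0.00794). Cd163l1, a scavenger receptor of gamma delta T cells, had 5 to 14 and 9 to 29 reads (1.06 ± 0.49 SE, limma p = 0.0385, exact permutation p = 0.00794) and kept its call in 13 of 25 alternatives. Nim1k, a kinase gene, had 0 to 9 and 7 to 12 reads (1.73 ± 0.67 SE, limma p = 0.0158, exact permutation p = 0.00794). Without control mouse 5, which had 0 reads, its log2 fold change was 1.02 and it was not DE. The antisense gene A930015D03Rik had the smallest p of the table (0.96 ± 0.24 SE, limma p = 5.06e-04, exact permutation p = 0.00794, 4 to 11 against 8 to 23 reads). Whether counting used strand is not given in the sources used here, so reads of the opposite strand cannot be told apart. The long non-coding RNA Gm20045 (-1.06 ± 0.30 SE), the unreviewed transcripts Gm38366 (0.99 ± 0.31 SE) and Gm43359 (-1.47 ± 0.46 SE), and the copies Gm21092, Gm20056 and Tpm3-rs7 were low as well. Gm43359 and Gm21092 overlapped between the groups, and the 3 copies are uncertain because they can share reads with the genes they resemble.

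The remaining genes with the smallest p were Galnt7, an enzyme that starts O-glycans (0.50 ± 0.14 SE, limma p = 0.00204, exact permutation p = 0.0159, 3.77 to 4.16 against 4.12 to 4.83 log2 CPM), Tdg, a DNA glycosylase of demethylation (-0.60 ± 0.19 SE, limma p = 0.00363, exact permutation p = 0.0238), Mettl8, an RNA methyltransferase (-0.52 ± 0.16 SE, limma p = 0.00377, exact permutation p = 0.0317), and Kcne3, a potassium channel subunit (-1.17 ± 0.36 SE, limma p = 0.00294, exact permutation p = 0.0238). In each of these the groups overlapped.

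Of 10 measured immunoglobulin constant regions 1 was called, higher, where 2.98% of all genes were. Ighg2b, the constant region of IgG2b, was at 0.85, 1.14, -0.23, 1.12 and 1.04 log2 CPM in the controls and 2.31, 1.75, 1.68, 1.55 and 1.64 in the susceptible mice, without overlap (1.00 ± 0.30 SE, limma p = 0.00283, exact permutation p = 0.00794). The other 9 of 10 measured constant regions were on average lower, from -0.40 for Ighg3 to -0.03 for Ighg1, and 0 of them were DE. Ighm, the constant region of IgM, was at -0.23 ± 0.22 (SE, limma p = 0.305, exact permutation p = 0.341).

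White cell lists held few calls. Their counts stand beside the 2.98% of all genes called higher and the 1.52% called lower. In the neutrophil list 2 of 39 genes were called higher and 27 were above 0 (median 0.22). Both, Ifitm1 and Ifitm2, encode membrane proteins that restrict viral entry and occur in many cell types. Ifitm1 was at 2.66 to 3.44 log2 CPM in the controls and at 6.55, 3.81, 3.87, 3.78 and 2.72 in the susceptible mice (1.16 ± 0.50 SE, limma p = 0.0296, exact permutation p = 0.0556). Ifitm2 was at 3.32 to 3.94 and at 5.56, 3.86, 4.41, 3.75 and 3.78 (0.68 ± 0.27 SE, limma p = 0.0189, exact permutation p = 0.0714). Susceptible mouse 1 led both, as it led the calprotectin gene S100a9 (11.61 against 9.14 to 10.71 in the controls), and without that mouse the values were 0.56 and 0.36 and neither was DE.

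In the monocyte list 0 of 35 genes were DE and 6 were above 0 (median -0.19, Lyz2 -0.19 ± 0.27 SE). In the B cell list 0 of 31 were DE and 3 were above 0 (median -0.22). In the list of natural killer and cytotoxic genes 1 of 33 was called higher, Fcer1g (0.50 ± 0.22 SE, limma p = 0.0284, exact permutation p = 0.0952), while 29 were below 0 (median -0.24). Fcer1g encodes a signalling chain that platelets also use, with the collagen receptor Gp6. The T cell list had 1 of 36 called, the adaptor Lat (0.30 ± 0.14 SE, limma p = 0.0359, exact permutation p = 0.0159), which platelets share, and a median of -0.04. With the mean platelet level as a covariate Fcer1g was at 0.14 and Lat at 0.21, and neither was DE. That level differs between the groups (7.20 against 7.95 log2 CPM), so the covariate takes up part of any group difference. Over all 26 alternatives Fcer1g lost its call in 12 and Lat in 13. Whether platelets account for these calls was not tested.

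Lists of signalling pathways held few calls, where 2.98% of all genes were called higher and 1.52% lower. At these shares lists of this size hold few calls in any case. Of 53 interferon-stimulated genes 0 were DE (median -0.01, Rsad2 0.09 ± 0.42 SE), of 32 genes of antigen presentation 0 (28 below 0, median -0.16, with B2m, the most abundant, the highest of the list at 0.31 ± 0.26 SE) and of 28 immediate early and stress genes 0 (median -0.10, Gadd45a -0.09 ± 0.32 SE). Among 30 genes of the glucocorticoid receptor and its targets 1 was called lower (median -0.15), and so was 1 of 23 inflammatory cytokines and receptors (median -0.11). It was the same gene, Nfkbia, which encodes the inhibitor that holds NF-kappa B in the cytoplasm. Nfkbia was at 5.21, 5.03, 4.93, 4.74 and 5.08 log2 CPM in the controls and 4.56, 5.13, 4.27, 4.65 and 4.45 in the susceptible mice (-0.39 ± 0.17 SE, limma p = 0.0308, exact permutation p = 0.0635). Every susceptible mouse but mouse 2 was below all controls.

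The study asked whether pathways that respond to stress in the brain, mitochondrial ones among them, can be seen in blood. By gene set enrichment over ranked genes, the paper reports oxidative phosphorylation genes raised in defeated B6 and lowered in defeated D2 blood. Calls of single genes are counted here, which is a different measure. In blood 0 of 36 complex I subunits were DE (24 above 0, median 0.05, Ndufa3 0.32 ± 0.23 SE). Of 26 genes of complexes II to IV and cytochrome c, 2 were called higher (20 above 0, median 0.13), where 2.98% of all genes were. These were the cytochrome c oxidase subunits Cox5a (0.61 ± 0.29 SE, limma p = 0.0440, exact permutation p = 0.0952) and Cox6b1 (0.33 ± 0.16 SE, limma p = 0.0419, exact permutation p = 0.0476). Cox5a was at 6.31, 5.18, 6.41, 6.83 and 6.07 log2 CPM in the controls and 6.97, 6.27, 7.37, 6.50 and 6.73 in the susceptible mice, with control mouse 2 again the lowest and susceptible mouse 3 the highest. With the mean platelet level as a covariate the log2 fold changes of Cox5a and Cox6b1 were 0.01 and 0.05. The covariate itself differs between the groups, and whether platelets account for these calls was not tested. Of 17 ATP synthase genes 0 were DE (14 above 0, median 0.12, Atp5b 0.16 ± 0.31 SE). All 9 measured mitochondrially encoded genes were above 0 (median 0.23), 0 were DE, and mt-Rnr2, the large ribosomal RNA, was at 0.22 ± 0.88 (SE). In resilient mice against the same controls the medians of these lists, in the same order, were 0.07, 0.18, 0.18 and 0.27. In D2 susceptible mice against D2 controls, grouped by the labels, they were -0.01, -0.02, -0.02 and -0.07. These D2 medians depend on the uncertain grouping.

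Red cell and housekeeping lists gave almost no calls, where 2.98% of all genes were called higher and 1.52% lower. Of 44 erythroid and heme genes 0 were DE (36 above 0, median 0.10). Alas2, the first enzyme of heme synthesis in red cells, was at 16.19 to 16.98 log2 CPM in the controls and 16.07 to 17.46 in the susceptible mice (0.16 ± 0.99 SE). Cytosolic ribosomal proteins had 0 of 82 DE (median -0.06, Rplp0 0.06 ± 0.26 SE), the proteasome 0 of 34 (median -0.07, Psmd4 0.12 ± 0.29 SE), and eosinophil, basophil and mast cell genes 0 of 21 (17 below 0, median -0.26). The most abundant gene of the last list, Hdc, had the highest value in it (0.54 ± 0.33 SE). Mitochondrial ribosomal proteins had 1 of 77 called higher, Mrpl37 (0.31 ± 0.13 SE, limma p = 0.0250, exact permutation p = 0.0317). Cell cycle genes had 2 of 39 called lower, the replication helicase subunit Mcm5 (-0.27 ± 0.13 SE, limma p = 0.0423, exact permutation p = 0.0952) and the microtubule regulator Stmn1 (-0.68 ± 0.28 SE, limma p = 0.0211, exact permutation p = 0.0397), with a median of 0.05. Adhesion genes had 1 of 31 called higher, Cd44, a hyaluronan receptor (0.46 ± 0.22 SE, limma p = 0.0480, exact permutation p = 0.206).

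**Figure D5:**
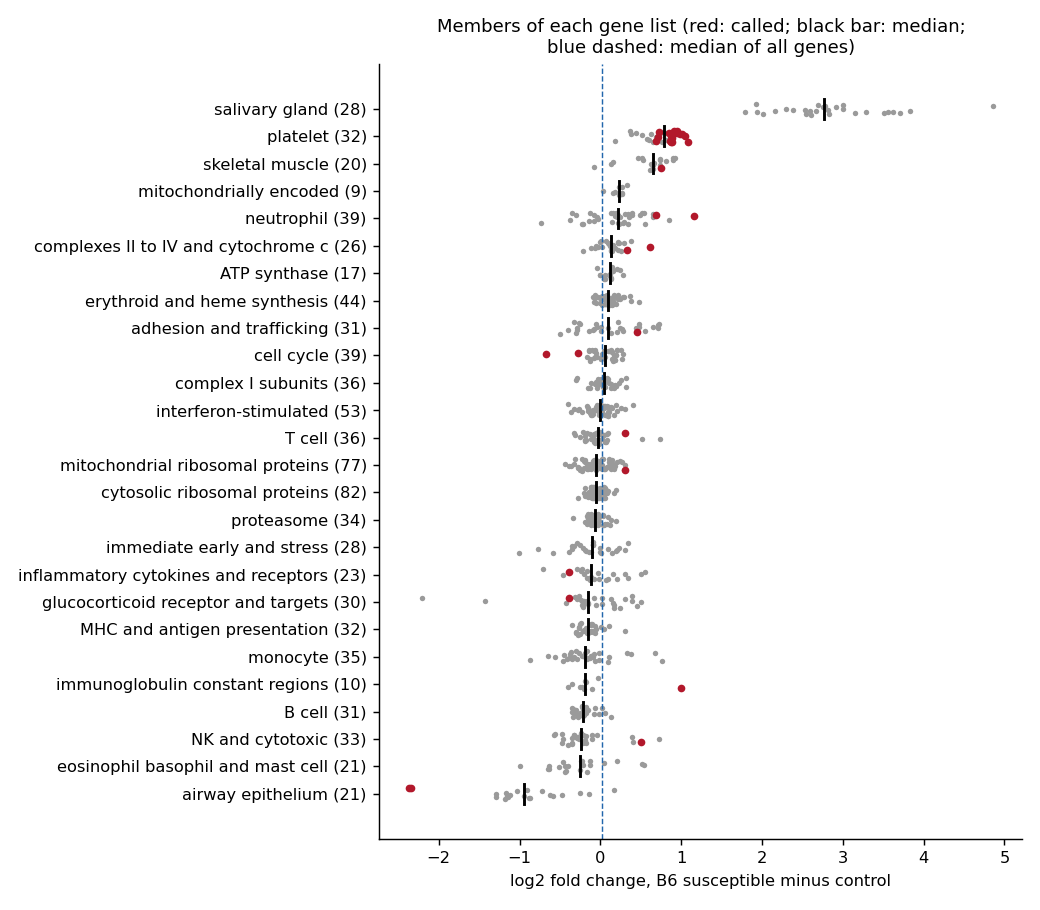
Log2 fold change (x axis, B6 susceptible minus control) of every measured member of each gene list (rows, number of genes in brackets), with DE members in red, a black bar at the list's median and a dashed line at the median of all genes. The platelet row holds 17 red points and a median of 0.79, while the salivary row has the highest median, 2.76, with no red point.

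The platelet signal and the rest of the calls were compared by refitting the model with the mean platelet level as a covariate, a choice made after seeing the data. In that fit 327 genes were DE, 166 higher and 161 lower. Of the 390 genes first called higher 68 remained called higher, and of the 199 called lower 62 remained. Among the named genes, 15 of the 39 lost their call. The platelet mean was 7.20 log2 CPM in control and 7.95 in susceptible mice. This covariate therefore takes up part of any difference between the groups, and whether platelets account for the lost calls was not tested.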

How the data were processed

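Whole blood RNA of 25 mice was sequenced after globin and ribosomal depletion with a stranded total RNA kit. According to the methods, the authors aligned reads with STAR to GRCm38, counted genes with HTSeq on Ensembl genes, kept genes with at least 1 CPM in at least 6 samples and transformed counts with voom. The deposited values are log2 CPM per effective library size. The whole read counts behind them were recovered for 100% of values (tolerance 0.0001 reads). Gene names were matched to GENCODE M21 for 13054 of 13084 genes.

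Deposited log2 CPM were fitted with limma 3.58.1 in R 4.3.3, all 25 samples and 5 groups in 1 model, with an empirical Bayes trend, no covariates and two-sided tests. Genes were called at p under 0.05 and a fold of at least 1.2, the rule of the study. Benjamini-Hochberg adjustment covered all genes. Single genes were also given a two-sided exact permutation test of 5 against 5 mice. The test was checked on simulated data. List members were counted, with no set test.

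Genes named were the 10 higher and 10 lower DE genes with the smallest p, the 5 higher and 5 lower non-overlapping DE genes with the largest fold change, and, in each of 22 lists, every DE member (where more than 6 were DE, the 3 higher and 3 lower with the smallest p) or, where none was DE, the most abundant member. Other genes named in the text (such as Ppbp, Pf4, Itga2b, F7 and the salivary, airway and muscle genes) were chosen after their values were seen. The comparison and the lists were chosen with earlier results of these data known, and 4 lists (salivary, airway, muscle, immunoglobulin) after their values were seen. Alternatives changed the samples fitted, trend, weights, scaling, expression filter, name prefix, each mouse in turn and, after seeing the data, covariates and D2 groups. Read counts of 9751603 to 14969801 per mouse limit the precision of genes with few reads. Replicate mice were numbered in accession order. The values of 1 platelet gene are not reported here, and it is counted in the totals only, other than in the outlier search.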

Additional observations from a re-analysis of the deposited data

Results flagged for a closer look

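In a group of 5 mice a value was singled out when its gap to the nearest other mouse exceeded 0.71 of the range of the group (Dixon's 95% limit), which chance alone gives in about 1 of 20 groups, and 7 of 100 groups of named genes met it. Control mouse 2 was low for Slc6a3 (-1.98 log2 CPM, others from 0.45 upwards) and Ndufa3 (5.80, others 6.40 to 6.57). It was also the mouse with the lowest platelet mean. For Ighg2b control mouse 3 was low (-0.23, others 0.85 to 1.14) and susceptible mouse 1 high (2.31, others 1.55 to 1.75). Control mouse 1 was low for Sik3 (2.56, others 2.97 to 3.14), control mouse 5 for Nim1k (-4.84, others -1.69 to -0.54), and susceptible mouse 3 was high for Gm20056 (1.30, others up to 0.37).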

How the results depend on the processing

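No gene reached an adjusted p of 0.05 in limma under any alternative. Against 589 calls (390 higher, 199 lower), leaving out 1 mouse at a time gave 293 to 1060 calls, 174 to 641 higher, 119 to 428 lower, 0 to 27 platelet genes higher and 423 to 951 interaction calls, against 703. The lowest counts came without susceptible mouse 3 and the most calls without susceptible mouse 2, while the platelet count was lowest without susceptible mouse 1 and highest without control mouse 4. Lower calls numbered 120 with the 15 B6 samples alone and 119 with the 10 compared samples. Array weights gave 333 calls, 143 higher, and 0 platelet genes. Scaling to total reads gave 266 (144 higher, 122 lower) and to reads other than haemoglobin 272 (145 and 127), with the median of all genes at -0.13 and -0.14. The share of higher calls was 66.2% at first, 54.1% with total reads or quantile normalization and 42.9% with array weights. A mean of at least 2 log2 CPM left 384 calls, 109 lower. Within EC3 there were 750 higher and 116 lower calls, and within EC4 232 and 442, with 0 platelet genes.

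After seeing the data, further fits were added. With the platelet mean as a covariate 327 genes were called, 166 higher, with 0 platelet genes higher and a platelet median of -0.0028, as that fit removes the mean of the list. Airway and salivary covariates gave 1252 calls, 1025 higher, 31 of them platelet genes. Without control mice 3 and 4 there were 963 calls, 773 higher, 29 of them platelet genes. D2 groups by column name gave 1321 interaction calls. In the other alternatives these counts stayed within 1.5 times. Of 39 named called genes 34 lost the call under at least 1 of 26 alternatives and 0 turned direction, and 2 uncalled genes (B2m, Hdc) gained one. The causes of these shifts were not tested. No paired analysis was possible because the blood labels give no replicate numbers that groups share. Few reads limit the genes under 2 log2 CPM.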
